A study of Mus musculus with 6 samples.

Results

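The surfactant protein genes Sftpa1, Sftpb, Sftpc and Sftpd were followed in fetal mouse lungs with and without Hopx. The members are every probe set of the array that is annotated to exactly 1 of these genes, which gave 6 of 45037 probe sets and 4 of 18193 named genes. Sftpa1 and Sftpc have 2 probe sets each, and Sftpb and Sftpd have 1 each. The lungs were microdissected at E16.5 (days of embryonic development), and total RNA of each was hybridised to its own single-channel Affymetrix array. The Hopx-null group (Hopx -/-) and the wild-type group (Hopx +/+) held 3 lungs each, labelled as biological replicates, and the strain background of both was mixed. No treatment, Cre or transgene is named for either group, and the sources used here do not give the deleted part of Hopx, the sex of the embryos or any pooling. Each value is a log2 expression value as the authors deposited it, so a difference of 1 stands for a doubling.

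Pulmonary surfactant is the film of lipid and protein that keeps alveoli from collapsing at the end of a breath, and type II alveolar cells make it. Its small hydrophobic proteins SP-B (from Sftpb) and SP-C (from Sftpc) are cut from larger precursors and packed with lipid into lamellar bodies, while SP-A (from Sftpa1) and SP-D (from Sftpd) are soluble collectins that bind microbial sugars. In the fetal lung Sftpc marks the distal epithelium early, and the collectin genes are known to climb toward birth. Hopx, an atypical homeodomain protein that binds no DNA itself, has been described as acting with histone deacetylases downstream of Nkx2-1 and Gata6 to hold surfactant genes down. The comparison therefore bears on whether surfactant protein RNA is higher where Hopx is missing.

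The promoters of Sftpb and Sftpa1 are shown because Nkx2-1 and Fox factors, the best known activators of the family, act on such sequences. RefSeq promoter sequences (build GRCm38.p6) matched 2 of the 4 genes. Each run is the 250 bases before the transcription start on the plus strand, at chr6:72304360-72304609 for Sftpb and chr14:41131538-41131787 for Sftpa1. Capitals mark matches on either strand to CTCAAG (a core of Nkx2-1 sites), to TGTTTNC (a core of Fox sites) and to TATAAA (the TATA box), and no match overlapped another.
Sftpb: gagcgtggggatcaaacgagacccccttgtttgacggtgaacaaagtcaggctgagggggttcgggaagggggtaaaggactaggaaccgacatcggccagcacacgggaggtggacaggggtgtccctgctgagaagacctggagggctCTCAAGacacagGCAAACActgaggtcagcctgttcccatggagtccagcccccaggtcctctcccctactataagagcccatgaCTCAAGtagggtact
Sftpa1: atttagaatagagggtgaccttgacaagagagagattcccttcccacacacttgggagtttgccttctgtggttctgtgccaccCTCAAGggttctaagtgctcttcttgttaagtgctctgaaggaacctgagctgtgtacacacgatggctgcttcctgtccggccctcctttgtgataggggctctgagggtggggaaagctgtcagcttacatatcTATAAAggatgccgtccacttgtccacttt

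The Sftpb window held CTCAAG at 100 to 95 and at 15 to 10 bases before the start, with the Fox core on the opposite strand between them, at 88 to 82 bases. The Sftpa1 window held CTCAAG once, 166 to 161 bases before the start, and a TATA box at 30 to 25 bases. Of 32851 promoter windows of this length, 13.3% held CTCAAG at least once, 0.998% held it 2 or more times, 17.8% held the Fox core and 12.4% held TATAAA. A match describes letters and does not show that a factor binds there. In the RefSeq gene order Sftpa1 and Sftpd lie on chromosome 14 with one protein-coding gene between them, Mbl1, which encodes another collectin. Sftpc lies elsewhere on chromosome 14, between Bmp1 and Lgi3, and Sftpb lies on chromosome 6.

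All 4 genes gave bright signals in every lung, whatever the genotype. The brightest probe set of Sftpc ranked with 13 to 28 of the 45037 probe sets above it, and its value was 0.37 to 0.53 log2 units under the brightest of each array. For Sftpa1, 100 to 215 probe sets were brighter. For Sftpd the number was 137 to 292, and for Sftpb it was 237 to 365. The second probe set of Sftpa1 was dimmer, with 2033 to 3447 probe sets above it. Brightness depends on the probes as well as on the RNA, so these ranks place each gene on the array and do not order the genes among themselves.

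Hopx itself was lower in the lungs labelled Hopx-null at both of its probe sets, the only 2 of 45037 that passed limma (Benjamini-Hochberg adjusted p under 0.05), or 0.00444% of those tested. The probe set with the suffix s_at read 4.59 to 4.96 in the Hopx-null lungs and 10.41 to 10.96 in the wild-type lungs, a log2 difference of -5.94. The brighter probe set (suffix a_at) differed by -1.91 and still read 10.35 to 10.64 in the Hopx-null lungs, against 12.26 to 12.5 in the wild-type lungs. The source of that remaining signal was not tested. Pairs of arrays correlated at 0.989 to 0.995 over all probe sets. The mean of 3 Y-linked genes was 9.24 and 9.12 in wild-type replicates 2 and 3 and 2.47 to 2.57 in the other 4 lungs, so embryo sex is not balanced between the groups.

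None of the 4 surfactant protein genes passed limma over all probe sets. Sftpa1, the gene of the collectin SP-A, had the largest difference, and both of its probe sets read higher in every Hopx-null lung than in any wild-type lung. Sftpb, whose product is needed to spread surfactant lipid, was also higher in every Hopx-null lung, by a smaller amount. The lungs of both groups were interleaved for Sftpc, with a 95% interval from -0.19 to 0.20 log2 units. Sftpd had overlapping groups. In whole lung RNA, a change in the number of surfactant-producing cells and a change in RNA per cell cannot be told apart.

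The brighter Sftpa1 probe set (suffix a_at) read 13.26, 13.39 and 13.28 in the Hopx-null lungs, given here and below in the order of replicates 1 to 3, and 13.15, 13.11 and 13.10 in the wild-type lungs. The lowest Hopx-null lung was 0.11 log2 units above the highest wild-type lung. The means were 13.31 ± 0.07 (SD, n = 3) and 13.12 ± 0.03 (SD, n = 3), and the log2 difference was 0.19 (SE 0.08, 95% interval -0.0037 to 0.39), a fold of 1.14. This did not pass limma (unadjusted p = 0.0534, Benjamini-Hochberg adjusted p = 0.878).

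The second Sftpa1 probe set (suffix at) read 11.39, 11.65 and 11.51 in the Hopx-null lungs and 11.13, 11.09 and 11.30 in the wild-type lungs. Again no wild-type lung reached a Hopx-null lung, and Hopx-null replicate 2 was highest at both probe sets. The log2 difference was 0.34 (SE 0.11, 95% interval 0.09 to 0.59), a fold of 1.27. It had an unadjusted p of 0.0152 and did not pass after adjustment over all probe sets (limma, Benjamini-Hochberg, adjusted p = 0.878). Of all probe sets, 1.19% had a smaller p and 8.06% had a larger difference in size.

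Sftpb read 12.94, 12.98 and 13.02 in the lungs without Hopx and 12.83, 12.90 and 12.88 in those with it. The groups did not overlap, but the gap between them was only 0.04. The log2 difference was 0.11 (SE 0.08, 95% interval -0.08 to 0.30), a fold of 1.08 that did not pass limma (Benjamini-Hochberg, adjusted p = 0.878). Of all probe sets on the array, 47.3% had a larger difference in size.

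Sftpc, the most specific marker of type II cells and their distal precursors, read 13.82, 13.76 and 13.72 in the Hopx-null lungs and 13.73, 13.80 and 13.75 in the wild-type lungs at the brighter of its probe sets (suffix at). Hopx-null replicates 1 and 3 were the highest and the lowest of the 6 lungs. The log2 difference was 0.0047 (SE 0.08, 95% interval -0.19 to 0.20), a fold of 1.0 with a 95% interval from 0.879 to 1.15. This did not pass limma (Benjamini-Hochberg, adjusted p = 0.996). The second probe set (suffix x_at) gave -0.01 (95% interval -0.21 to 0.18), with 13.79, 13.77 and 13.70 in the Hopx-null and 13.83, 13.77 and 13.71 in the wild-type lungs. Its suffix marks probes that can also bind other transcripts. Both probe sets lay close to the top of the array's range, and whether that range compresses differences was not tested.

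Sftpd, the gene of the collectin SP-D and a part of lung innate defence, varied within each genotype, with an SD of 0.10 in Hopx-null and 0.13 in wild-type lungs (n = 3 each). It read 13.09, 13.28 and 13.19 in the Hopx-null lungs and 13.20, 13.08 and 12.94 in the wild-type lungs. Wild-type replicate 1 was above Hopx-null replicates 1 and 3, and wild-type replicate 3 was the lowest of all. The log2 difference was 0.11 (SE 0.10, 95% interval -0.14 to 0.36), a fold of 1.08 that did not pass limma (Benjamini-Hochberg, adjusted p = 0.892). Left out singly, wild-type replicate 1 raised the difference to 0.17, wild-type replicate 3 lowered it to 0.04 and Hopx-null replicate 2 lowered it to 0.06. With Y-linked signal as a covariate it was -0.02, an estimate that rests almost wholly on wild-type replicate 1, the only wild-type lung without that signal.

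**Figure D1:**
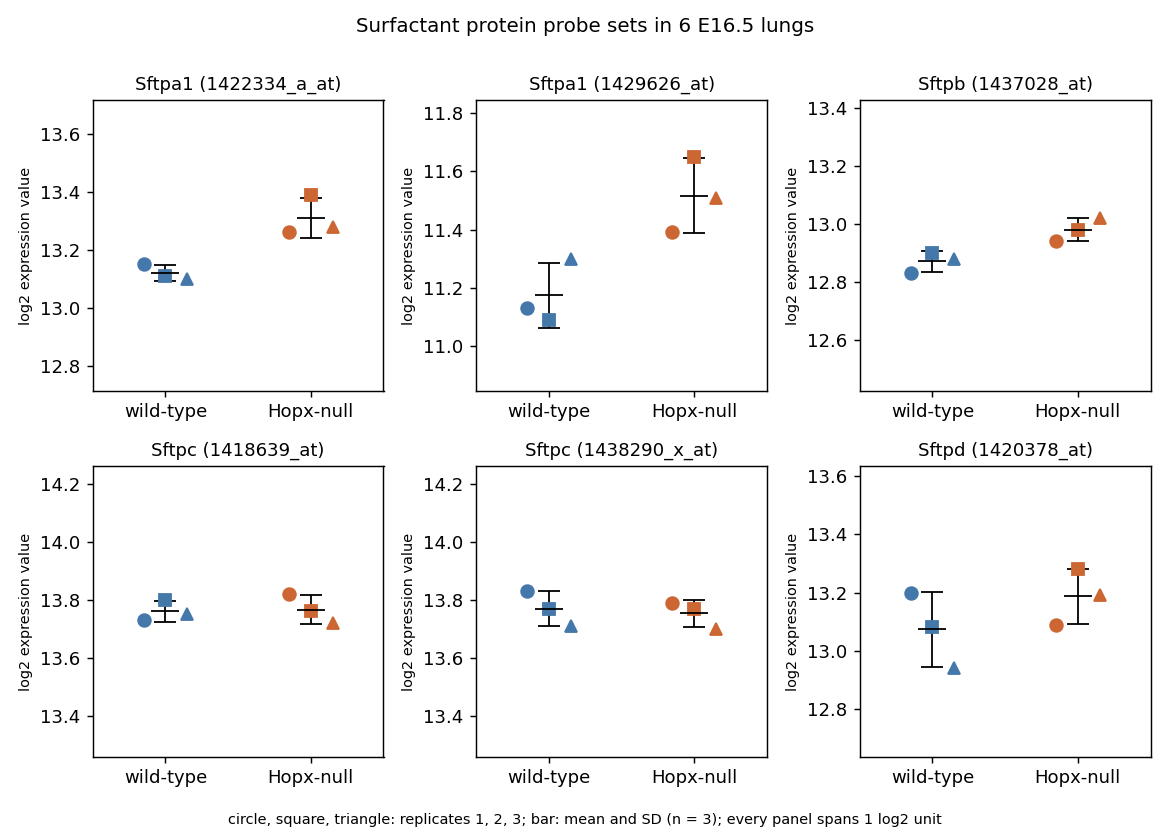
Log2 expression value (vertical axis, each panel spanning 1 log2 unit) of the 6 surfactant protein probe sets in wild-type (blue) and Hopx-null (orange) lungs. Symbols are single lungs and bars are the mean and SD of 3. Both Sftpa1 probe sets and Sftpb have every Hopx-null lung above every wild-type lung, whereas Sftpc and Sftpd overlap.

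Counted together, 3 of the 6 probe sets, belonging to 2 of the 4 genes, had all Hopx-null lungs above all wild-type lungs. Over the whole array, 5.6% of probe sets did so, and of named genes, taken at the brightest probe set, 6.21% did. Since the probe sets of 1 gene measure the same transcripts in the same lungs, and the members were chosen with earlier results known, the count is given as a description. With 3 lungs against 3, a two-sided exact permutation test has 0.1 as its smallest p, which is the value of both Sftpa1 probe sets and of Sftpb. The same exact test gave 0.8 and 0.7 at the Sftpc probe sets and 0.4 for Sftpd. One of the 6 probe sets, the second of Sftpa1, had an unadjusted limma p under 0.05 with higher values in Hopx-null lungs, as did 2.77% of all probe sets.

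**Figure D2:**
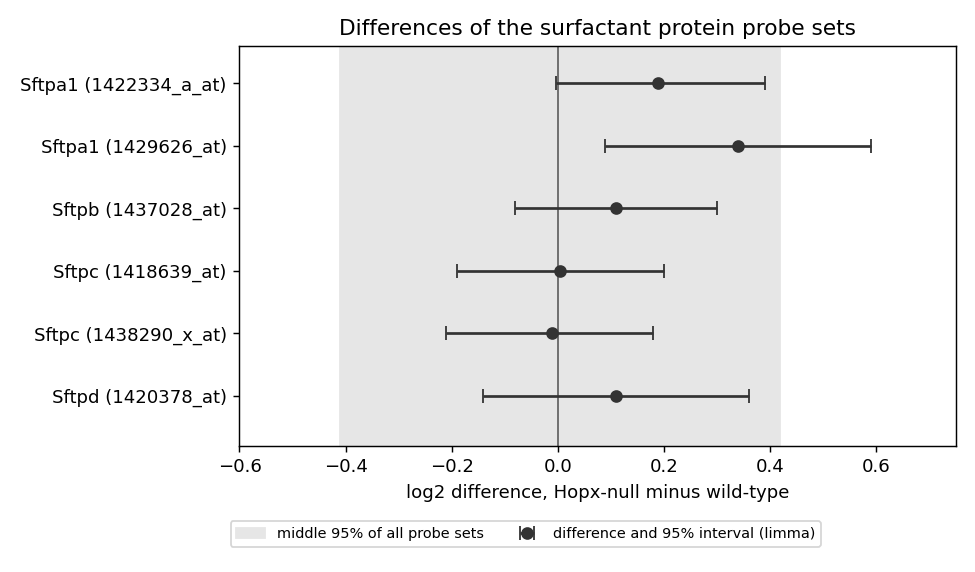
Log2 difference, Hopx-null minus wild-type (horizontal axis), of each surfactant protein probe set with its 95% interval from limma. The grey band, from -0.41 to 0.42, holds the middle 95% of the differences of all probe sets, and the 6 estimates lie inside it.

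The members were also set against each other on the same array. Relative to Sftpc, Sftpa1 was higher in each Hopx-null lung, at -0.55, -0.36 and -0.44 log2 units, than in the wild-type lungs, at -0.57, -0.70 and -0.65. The log2 ratio differed by 0.19 between genotypes, and Hopx-null replicate 1 was only just above wild-type replicate 1. Sftpc itself differed by 0.0047, so this ratio largely repeats the Sftpa1 difference of 0.19 from the same values. Sftpb relative to Sftpc differed by 0.10, and the groups overlapped. Over the 6 pairs of genes, compared after the values had been seen, Sftpa1 to Sftpc was the pair without overlap, with an exact two-sided permutation p of 0.1, or 0.45 adjusted by Benjamini-Hochberg. The log2 ratio of Sftpb to Sftpd differed by -0.0016, with values from -0.30 to -0.15 in the Hopx-null and -0.37 to -0.06 in the wild-type lungs.

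**Figure D3:**
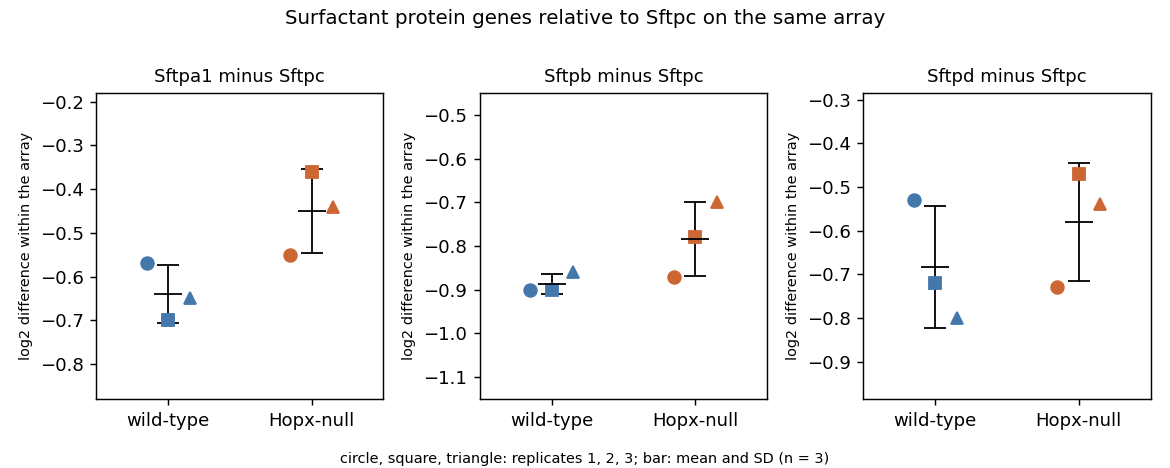
Log2 difference within the array (vertical axis) between Sftpa1, Sftpb or Sftpd and Sftpc, at the brightest probe set of each, in wild-type (blue) and Hopx-null (orange) lungs. Symbols are single lungs and bars are the mean and SD of 3. The groups are separate for Sftpa1, with -0.55 against -0.57 at their nearest, and overlap for Sftpb and Sftpd, and the height of a panel depends on the probes.

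Epithelial content was read from 10 general epithelial markers, such as Epcam and Cdh1. Their mean level was 10.70 to 10.95 in the Hopx-null and 10.85 to 10.96 in the wild-type lungs, with 9 of 10 markers lower in Hopx-null lungs and a median log2 difference of -0.10. None passed limma. Per unit of this signal, the difference of Sftpa1 was 0.29, that of Sftpb 0.21, that of Sftpd 0.21 and that of Sftpc 0.11, and none passed limma (Benjamini-Hochberg, adjusted p = 0.788 for the first 3 and 0.844 for Sftpc). This scaling subtracts 1 value per array from every probe set, so it raised the difference of every gene on the array by the same amount. The rise is therefore not particular to the surfactant protein genes. The mean of the epithelial markers itself did not separate the groups (exact two-sided permutation p = 0.3). The part of epithelial content in these values was not tested further.

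The mean of the other 12 measured type II markers did not separate the groups. It was 11.84, 12.05 and 12.01 in the Hopx-null lungs and 12.03, 11.94 and 11.97 in the wild-type lungs, with 8 higher and 4 lower in Hopx-null lungs and a median log2 difference of 0.04. The lowest of these means, in Hopx-null replicate 1, held a low value of 1 gene, Chil1, a chitinase-like protein, at 9.09 against 11.07 to 11.29 in the other lungs. Without Chil1 the means were 12.09, 12.14 and 12.09 in the Hopx-null lungs, 12.12 in wild-type replicate 1 and at most 12.03 in the other wild-type lungs, and the groups still overlapped. Club and other secretory airway cells also make SP-A, SP-B and SP-D. Of 8 markers of these cells, 6 were lower in Hopx-null lungs, and their mean ranged from 10.34 to 10.97 against 10.42 to 11.56 in wild-type lungs, with none below the lower quartile of the arrays. Macrophage markers, for cells that take up surfactant, had means of 9.60 to 9.81 and 9.56 to 9.68. The part of these cells in the surfactant values was not tested.

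Genes that regulate transcription of the surfactant proteins were divided, with 9 of 19 higher and 10 lower in Hopx-null lungs, and none passed limma. Erbb4, among the higher, lay under the lower quartile of the arrays, where signal is close to background. The median log2 difference was -0.005, against 0.01 over all named genes, of which 0.0055% passed. Hdac2, a deacetylase that Hopx can recruit, differed most at -0.35, with 1 lung far below the rest. It read 10.78, 10.61 and 9.50 in the Hopx-null lungs and 10.56 to 10.77 in the wild-type lungs, and a second probe set read 8.82 in Hopx-null replicate 3 against 9.96 to 10.10 in the other lungs. Without that lung the difference at the brightest probe set was 0.05. Foxa2, a forkhead activator, differed by -0.28 with overlapping groups. Cebpd, a leucine-zipper factor, differed by -0.26, with 9.79, 9.73 and 9.86 in the Hopx-null and 10.11, 9.53 and 10.53 in the wild-type lungs. Its groups overlapped, and without wild-type replicate 3 the difference was -0.02.

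Groups did not overlap at 3 regulators, Nkx2-1, Foxa1 and Klf5, named after their values were seen, each lower in Hopx-null lungs. That is 3 of 19, where 10.5% of named genes had no overlap in either direction. Separate groups were not particular to this list. Of the lists described below, they occurred at 3 of 11 receptor and clearance genes and 2 of 11 sequence relatives, all higher in Hopx-null lungs. Among 12 processing genes they occurred at 2 higher and 1 lower, and at none of the 5 other collectins. Nkx2-1, the homeodomain factor that defines lung epithelium, read 7.62, 7.38 and 7.71 in the Hopx-null and 7.77, 7.81 and 7.82 in the wild-type lungs, a log2 difference of -0.23 (95% interval -0.49 to 0.03). Foxa1 read 10.77, 10.76 and 10.65 against 10.83, 10.95 and 10.97, a difference of -0.19 (95% interval -0.40 to 0.02), and Klf5, a Krüppel-like factor, differed by -0.26. These values lay in the direction opposite to those of Sftpa1 and Sftpb on the same arrays, and a link between them was not tested. Of the 10 general epithelial markers, 9 were also lower in Hopx-null lungs, and the part of epithelial content in the regulator values was not tested. Gata6, the zinc-finger factor, differed by -0.01 and Cebpa by -0.13, both with overlapping groups.

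Genes of surfactant protein processing and the lamellar body, 12 of 13 measured, were 6 higher and 6 lower in Hopx-null lungs, with a median of 0.02 and none passing limma. Pgc, a pepsinogen made by type II cells, differed most at -0.94 (95% interval -2.01 to 0.14). It read 6.92, 5.56 and 6.17 in the Hopx-null and 7.98, 6.86 and 6.61 in the wild-type lungs, so the groups overlapped. Abca3, which carries lipid into lamellar bodies, differed by 0.19 and Hps1, a factor of lysosome-related organelles, by 0.18. Napsa and Ctsh, which are among the proteases that trim pro-SP-B, differed by 0.04 and -0.13. The second probe set of Abca3 by brightness differed by 0.29 and the third by -1.10, so its probe sets disagreed.

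Receptors and clearance factors of surfactant were 8 higher and 3 lower of 11, with a median of 0.05. Myo18a, which encodes a receptor for SP-A, differed most. It read 10.31, 10.40 and 10.53 in the Hopx-null and 10.17, 10.24 and 10.04 in the wild-type lungs, a log2 difference of 0.27 (95% interval 0.03 to 0.50) that did not pass limma (Benjamini-Hochberg, adjusted p = 0.878). Tlr2 differed by 0.20 and Sirpa, a receptor that binds the collectin heads, by 0.16. Adgrf5, the receptor that limits the surfactant pool, differed by -0.01.

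Relatives of the surfactant proteins by sequence family did not pass limma either. Of the 5 other collectins, 3 were higher and 2 lower in Hopx-null lungs, with a median of 0.15. But the median was -0.02 with Hopx-null replicate 3 left out and 0.03 with wild-type replicate 1 left out. Mbl2, one of the 2 lower, lay under the lower quartile of the arrays, where signal is close to background. Colec11 differed most, at -0.37 (95% interval -0.95 to 0.21), and by -0.10 without wild-type replicate 2, which read 6.12 against 4.95 to 5.38 in the other lungs. Colec10, a liver-type collectin, differed by 0.31 (95% interval -0.44 to 1.07), and by -0.05 without wild-type replicate 1, which read 6.80 against 7.56 to 8.12 in the other lungs. Mbl1, the gene between Sftpa1 and Sftpd, differed by 0.18 and by -0.02 without Hopx-null replicate 3. It read 6.39, 6.59 and 7.12 against 6.77, 6.33 and 6.45, so its groups overlapped. Of 11 measured relatives of SP-B and SP-C with saposin-like or BRICHOS domains, 5 were higher and 6 lower, with a median of -0.01. Of these, Tnmd, Gkn1 and Gkn2 lay under the lower quartile of the arrays, so their directions carry little, and Tnmd held the median. Cnmd, a cartilage gene, differed most at -1.37, then Psapl1 at -0.44 and Aoah at -0.21 (0.05 without Hopx-null replicate 1), and cartilage markers ranged from 5.05 to 6.37 in the Hopx-null and 5.02 to 7.96 in the wild-type lungs.

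**Figure D4:**
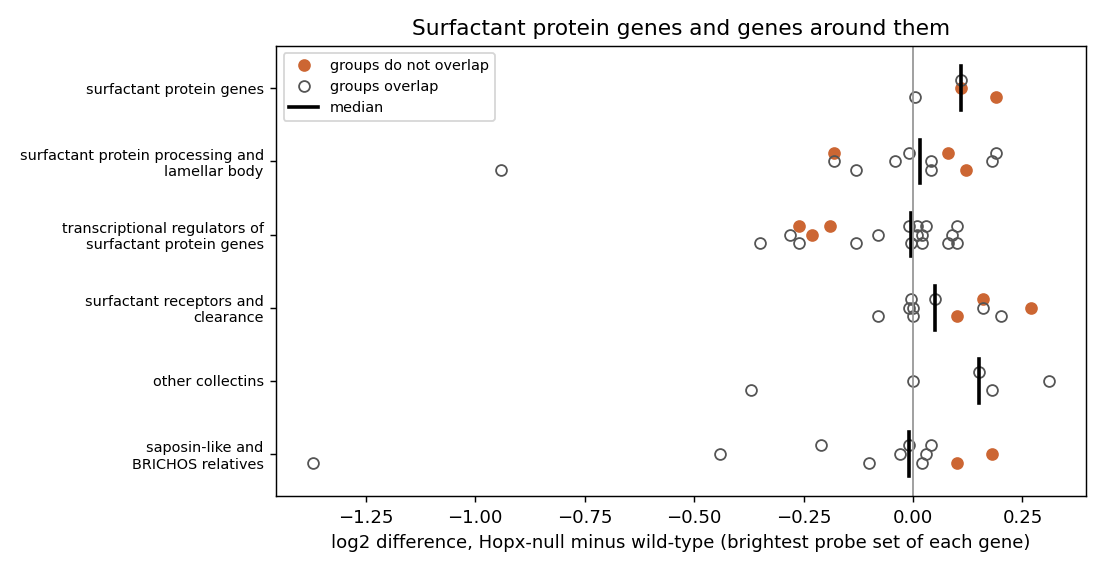
Log2 difference, Hopx-null minus wild-type (horizontal axis), of each gene at its brightest probe set, for the surfactant protein genes and 5 lists of related genes (rows). Filled points have groups that do not overlap, open points overlap, and black bars are medians. The filled point of Gkn1 and the open points of Tnmd, Gkn2, Mbl2 and Erbb4 are close to background. Medians lie between -0.01 and 0.15, and the widest points are Cnmd at -1.37 and Pgc at -0.94.

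Profiles over the 6 arrays were compared between each member and 11434 other genes with a mean above the median, as the root mean square difference between centred log2 values. Nearest to the brighter Sftpa1 probe set were Apoo at 0.026, Hc at 0.028 and Tcf3 at 0.029. Hc is a complement factor also used as a type II marker. It read 12.62, 12.71 and 12.59 in the Hopx-null and 12.55, 12.46 and 12.45 in the wild-type lungs. Its groups were separate, as were those of Apoo and Tcf3, which follows from choosing the genes nearest to a separated profile. For the dimmer Sftpa1 probe set the nearest were Hspbap1 at 0.061, Il1rn, an interleukin receptor antagonist, at 0.063 and Hvcn1, a proton channel, at 0.064. Within 0.1 of it lay 25 genes, against 1189 for the brighter Sftpa1 probe set. The dimmer probe set also varied more, with a root mean square of 0.197 around its own mean against 0.106. A fixed limit holds fewer genes for a profile that varies more, so these counts do not rank how unusual a profile is.

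The other members varied less than the dimmer Sftpa1 probe set, by 0.036 to 0.108 around their means. Sftpb was nearest to Prpf31 at 0.014, Rnaseh2b at 0.019 and Mrps16 at 0.023, and 3167 genes lay within 0.1. Sftpd was nearest to Itpkb at 0.024, Slc39a7 at 0.027 and Ift20 at 0.030, with 1329 genes within 0.1. Sftpc was nearest to Lypla1 at 0.014, Dzip3 at 0.015 and Atp5pb at 0.015, and 3883 genes lay within 0.1, as a flat profile is near many others. The second Sftpc probe set was nearest to Cog6 at 0.011, Sgpp1 at 0.011 and Psmb1 at 0.012.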

How the data were processed

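The arrays and the members were those described above. The log2 values were deposited by the authors as 1 table of 45101 probe sets, made with RMA (background correction, quantile normalization and probe set summary) and Partek 6.6, per the submitters' processing notes, which give no role or order. The log base is not stated, and log2 was read from the range and the use of RMA. RMA equalises the arrays, so a shift of most transcripts would not show. The background option is not given in the sources used here.

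After 64 control probe sets were left out, limma 3.58.1 (R 4.3.3; lmFit and eBayes) was fitted to 45037 probe sets for Hopx-null minus wild-type, with Benjamini-Hochberg adjustment over all of them at 0.05. A probe set named a gene only where the platform annotation gave 1 symbol (34945 probe sets; 932 named several and 9160 none). List genes were taken at their brightest probe set. The fit was tested on simulated data. The number of arrays limits the precision. Named were Hopx, the 4 members, the 3 list genes with the largest differences and the 3 nearest profiles of each member, plus, outside that rule and chosen with earlier results known, Gata6, Cebpa, Napsa, Ctsh and Adgrf5 for their known roles and any gene said in the text to be chosen otherwise. Members and lists were chosen with earlier results of these data known. Alternatives were repeated normalization, scaling to epithelial markers, brighter probe sets alone, trend and robust variances, weighted arrays, the replicate block, a Y-linked covariate, other probe sets and each lung left out. Settings for the second Sftpa1 probe set the ratios between members, the type II mean without Chil1 and the list genes with each lung left out were added after seeing the data.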

Additional observations from a re-analysis of the deposited data

How the results depend on the processing

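No surfactant protein gene passed limma (Benjamini-Hochberg) under any alternative run, and Sftpa1 and Sftpb kept their direction in all of them. Most of these runs could not have changed that direction. Where the groups do not overlap, leaving out 1 lung or weighting the arrays cannot reverse a difference. The replicate block, the trend and robust variances and the brighter probe sets alone leave the estimate as it was. The log2 difference ranged from 0.15 to 0.34 for Sftpa1 over 14 alternatives (adjusted p 0.661 to 1.0, limma), from 0.09 to 0.21 for Sftpb over 13 (0.771 to 1.0), from -0.02 to 0.11 for Sftpc over 14 (0.844 to 1.0) and from -0.02 to 0.21 for Sftpd over 13 (0.77 to 1.0). The second Sftpa1 probe set ranged from 0.28 to 0.44. Values that changed sign were Sftpc at its other probe set (-0.01), Sftpc with 1 lung left out (range -0.02 to 0.03) and Sftpd with the Y-linked covariate (-0.02). In that fit, wild-type replicate 1 is the only wild-type lung without Y-linked signal, so the difference of every gene, Sftpa1 and Sftpb included, rests almost wholly on that 1 lung. The count over all probe sets was 2, and 1 with the replicate block, 1 with the Y-linked covariate, and 1 to 23 with 1 lung left out (12 without Hopx-null replicate 1, 23 without wild-type replicate 1). With 1 lung left out, list medians ranged from -0.05 to 0.04 for processing, -0.04 to 0.03 for regulators, 0.03 to 0.11 for receptors, -0.02 to 0.16 for collectins and -0.08 to -0.02 for sequence relatives. No gene of the 5 lists passed under any alternative run for them.

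The labels do not say whether the replicate numbers pair the lungs, and so few lungs cannot settle it. Deviations from the genotype means correlated at -0.131, -0.131 and 0.225 for replicates 1 to 3, and at -0.202 to 0.281 between lungs of unlike number. With the replicate block the difference of Sftpa1 was 0.19, of Sftpb 0.11, of Sftpc 0.0047 and of Sftpd 0.11, and the count over all probe sets fell from 2 to 1. Each block holds 1 lung of each genotype, so the block cannot change these differences and changes only their error. For Sftpa1 the SE went from 0.08 to 0.1 and the unadjusted limma p from 0.0534 to 0.116. For dim probe sets, under the lower quartile of 4.24 to 4.30, signal is close to background. All member probe sets were far above that level.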

Other observations

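The protein-coding genes on either side of the surfactant protein genes were read as well, 6 of 7 of them measured by 11 probe sets. Lgi3, which encodes a secreted leucine-rich repeat protein and lies next to Sftpc, read 11.19, 11.27 and 11.19 in the Hopx-null lungs and 10.95, 11.11 and 10.79 in the wild-type lungs at its brightest probe set. The log2 difference was 0.26 (95% interval 0.01 to 0.52). Every Hopx-null lung was above every wild-type lung there and at a second Lgi3 probe set, where the difference was 0.44 (95% interval 0.06 to 0.81). The third Lgi3 probe set differed by 0.01 with overlapping groups, so the probe sets disagreed. Bmp1, on the other side of Sftpc, differed by 0.09, -0.14 and 0.02 at its 3 probe sets, and the groups overlapped at each. Beside Sftpb, Atoh8 differed by -0.24, with every Hopx-null lung below every wild-type lung, and Usp39 by -0.03 and 0.04. Mat1a, next to Sftpa1, differed by 0.01. The groups did not overlap at 3 of the 11 probe sets, against 10.1% of all probe sets in either direction and 5.6% with Hopx-null higher, and none of the 11 passed limma.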
